A study of Mus musculus with 4 samples.

Results

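The genes described here encode neuropeptides and related peptide hormones, their receptors, and the proteins that cut, package and release peptides from dense core vesicles. They were chosen by gene symbol, through a list of names such as Npy, Sst, Cck, Penk, Chga and Cpe and name stems such as Sstr, Galr, Npy and Pcsk. The symbols matched 66 probes, each for a different gene, and 48 of these had a value on at least 3 of the 4 arrays. All arrays together measured 5140 genes under the same requirement. The 48 comprised 19 peptide precursors, 14 peptide receptors and 14 genes of peptide processing and of the dense core granule. The remaining one, Tacc2, was matched by spelling alone and encodes a coiled-coil protein of the centrosome, not a peptide.

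Neuropeptides are made as precursors in the endoplasmic reticulum and are packed into dense core vesicles together with granins. There, prohormone convertases cut the precursor at pairs of basic residues, carboxypeptidase E trims the ends, and an amidating enzyme finishes many of the peptides. Calcium triggers release of the vesicles, often away from the synapse, and the peptides act on G protein-coupled receptors. In the neocortex, many peptides mark classes of GABAergic interneurons, and transcription of several precursor genes follows neuronal activity through cAMP and calcium.

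RNA came from the neocortex of C57BL/6 mouse embryos at embryonic day 16. Each of 4 two-colour arrays set RNA of a separate null mutant sample against RNA of a pool of 4 control replicates, and the labels describe the mutant brain as silent at its synapses. No treatment was given to either group, as far as the labels state. On replicate 1 the null RNA carried Cy3 and the control pool Cy5, and on replicates 2, 3 and 4 the dyes were the other way round. For replicate 1 the source name reads day 14 where its title and characteristics read day 16. The same pool stood on every array and is 1 control sample, so that no test here includes how controls vary.

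Each value is the log ratio of the channels of an array, treated here as log2, so that 1 stands for a 2-fold difference. No source used here names the numerator. Signs are therefore given as deposited, with no statement on which genotype had more RNA. Replicates 2, 3 and 4 ran the same way under either reading and carried the comparison. On all of them the null RNA carried Cy5, so that a difference between the dyes cannot be told apart there from one between the genotypes. If the numerator was the same channel on every array, the sign of replicate 1 must be turned to join the others, and if the ratios had been set by genotype before deposit, it must not. Both cases are given. A ratio says nothing about the level of a gene, so the tissue could not be checked against its markers, and in whole tissue fewer cells of a type and less RNA per cell cannot be told apart.

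Of the 66 matched probes, 18 had no value on any array, which is 27.3%, against 14.3% of all 6856 probes. Receptors made up most of them, with 14 of 28 receptors lacking a value, against 3 of 22 precursors and 1 of 15 processing and granule genes. The receptors without a value were Avpr1a, Galr3, Nmbr, Nmur1, Npy2r, Npy5r, Npy6r, Oprk1, Sstr3, Tacr3, Trhr, Trhr2, Vipr1 and Vipr2. The precursors without a value were Hcrt, Pomc and Trh, all known for their expression in the hypothalamus, but Ghrh, also a hypothalamic precursor, had values on every array. The granule list lacked the convertase gene Pcsk4. What led to a missing value is not given in the sources used here. Another 4 genes, Cartpt, Edn3, Tac2 and Pcsk6, lacked a value on replicate 2, which left 44 genes with a value on replicates 2 to 4, and these 44 also had a value on replicate 1.

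On replicates 2 to 4 the 44 genes lay mostly on the positive side. Their mean log ratio was above 0 for 32 of them, or 72.7%, where 47.4% of all 5720 probes tested had a positive mean. By role, this held for 13 of 16 precursors, 11 of 14 receptors and 8 of 13 processing and granule genes. The median of the means was 0.21 over the 44 genes, 0.24 over the precursors, 0.27 over the receptors and 0.15 over the processing and granule genes, beside -0.016 over all probes. Without replicate 3 these medians were 0.078 for the set, 0.15 for precursors, 0.12 for receptors and 0.056 for processing and granule genes, and without replicate 4 the last was -0.076. With the 4 genes that lacked replicate 2 admitted, the set had 0.14, precursors 0.12 and processing and granule genes 0.080. For a single gene of the set, the 95% interval reached a median of 0.45 to either side of its mean, which is 1.36-fold. No mean of the 44 genes lay beyond 1 in size, against 0.944% of all probes, and 11 of them, or 25.0%, lay beyond 0.5, against 8.72%. The genes also varied more between the arrays than the table at large, with a median SD over replicates 2 to 4 of 0.35 against 0.27 for all probes.

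None of the 44 genes passed an adjusted p of 0.05 in limma, and neither did any of the 5720 probes (percent called 0.0). At an unadjusted p under 0.05, limma listed 7 of the 44 genes, or 15.9%, against 553 or 9.67% of all probes. Of the 7, 6 were positive, which is 13.6% of the set against 5.61% of all probes, and 1 was negative, which is 2.27% against 4.06%. The positive genes were the precursors Ghrh, Npff and Adcyap1, the receptors Sstr1 and Oprl1 and the granule gene Scg3, and the negative one was Pcsk1n. Which genes were listed changed with the arrays used. Without replicate 2, where all 48 genes could be fitted, the number was 6 and included 2 of the 7, or 12.5% against 4.09% of all probes. Without replicate 3 it was 7 and included 4 of them, or 15.9% against 9.5%. Without replicate 4 it was 5 and included 2 of them, or 11.4% against 10.9%, close to the share of all probes. Sstr1 was listed each time. With arrays weighted by how closely their values followed the fit, the number was 12, or 27.3% against 18.7% of all probes, and the median was 0.037. These weights drew the means towards replicate 2. The mean of Pcsk5, at -1.67 on that array, was -1.12 with array weights and -0.58 without them.

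The shift was uneven over the arrays. On replicate 4, 33 of 48 genes were positive, or 68.8%, against 50.7% of all probes (15 or 31.2% negative, against 49.3%). On replicate 3, 32 of 48 or 66.7% were positive, against 49.7% (16 or 33.3% negative, against 50.3%). On replicate 2 the share was 18 of 44, or 40.9%, against 45.9% (26 or 59.1% negative, against 54.1%), so that this array showed no excess of positive values. On replicate 1, with the dyes the other way round, 34 of 48 were negative, or 70.8%, against 49.8% of all probes, and 14 or 29.2% positive, against 50.2%. Receptors showed the widest contrast, with 13 of 14 positive on replicate 4 and 11 of 14 negative on replicate 1. Precursors followed, with 16 of 19 positive on replicate 3 and 15 of 19 negative on replicate 1. Processing and granule genes had 7 of 14 positive on replicate 3, 8 of 14 on replicate 4 and 6 of 14 on replicate 1, and with 4 of 13 on replicate 2, or 30.8%, they lay furthest below all probes on that array.

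**Figure D1:**
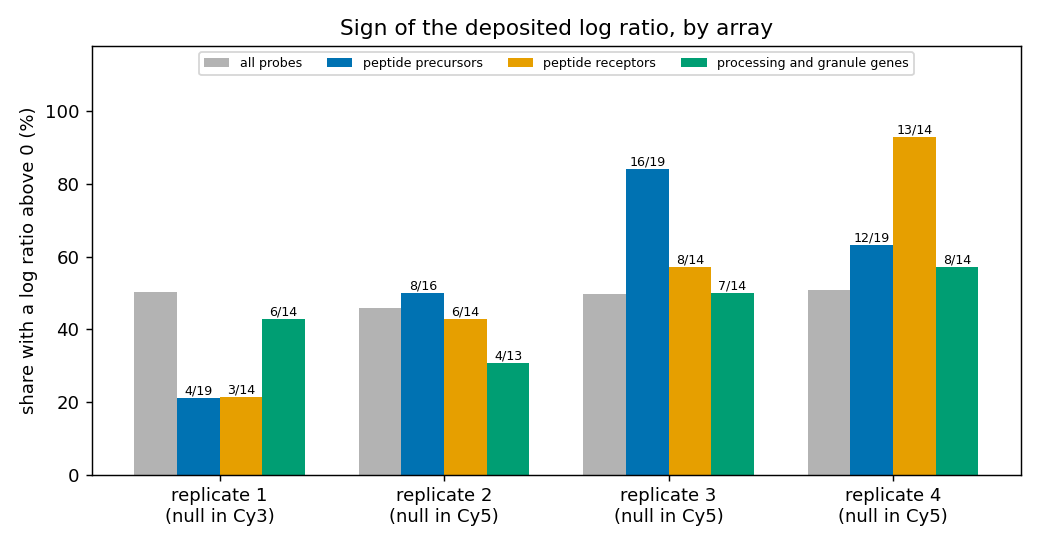
Share of genes with a deposited log ratio above 0 on each array (vertical axis, percent), for all probes, peptide precursors, peptide receptors and processing and granule genes, with the number positive over the number measured above each bar of the gene groups. Precursors and receptors lie below all probes on replicate 1 (4 of 19 and 3 of 14 positive) and above them on replicates 3 and 4.

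The upstream sequences of the genes were searched for the cAMP response element, the element through which cAMP and calcium are known to act on several peptide genes. Windows from 250 bases before to 50 bases after the start of the gene, from RefSeq on GRCm38.p6, were found for 41 of the 48 genes. The full element TGACGTCA, which reads the same on both strands, occurred in 6 of the 41 genes, or 14.6%, against 549 of all 27025 genes in the table, or 2.03%, and 1.79% of all windows. Those 6 genes were the precursors Sst and Cartpt, the receptor gene Sstr2, the granins Chgb and Scg2, and the convertase gene Pcsk1. The short form TGACG, searched on both strands and contained in the full one, occurred in 17 of the 41, or 41.5%, against 23.0% of all genes. The 17 include Tacc2. The table of all genes was not limited to genes on the arrays, and the share among measured genes was not counted. A match describes the letters of a window and is not evidence of binding. The windows with the full element, in capitals, read 5′ to 3′ on the strand of the gene.
Sst (GRCm38.p6 chr16:23890795-23891094, minus strand): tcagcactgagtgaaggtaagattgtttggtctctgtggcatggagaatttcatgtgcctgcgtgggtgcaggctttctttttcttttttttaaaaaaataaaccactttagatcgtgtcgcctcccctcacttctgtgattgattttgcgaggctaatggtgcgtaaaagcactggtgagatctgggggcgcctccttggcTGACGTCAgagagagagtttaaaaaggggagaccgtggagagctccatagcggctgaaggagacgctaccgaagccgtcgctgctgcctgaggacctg
Cartpt (GRCm38.p6 chr13:99900634-99900933, minus strand): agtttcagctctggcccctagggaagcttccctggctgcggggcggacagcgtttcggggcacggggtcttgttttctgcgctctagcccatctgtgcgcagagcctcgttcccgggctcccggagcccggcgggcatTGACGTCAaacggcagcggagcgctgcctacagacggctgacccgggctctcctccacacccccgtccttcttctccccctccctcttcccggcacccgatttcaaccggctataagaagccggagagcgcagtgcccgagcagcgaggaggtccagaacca
Sstr2 (GRCm38.p6 chr11:113619077-113619376, plus strand): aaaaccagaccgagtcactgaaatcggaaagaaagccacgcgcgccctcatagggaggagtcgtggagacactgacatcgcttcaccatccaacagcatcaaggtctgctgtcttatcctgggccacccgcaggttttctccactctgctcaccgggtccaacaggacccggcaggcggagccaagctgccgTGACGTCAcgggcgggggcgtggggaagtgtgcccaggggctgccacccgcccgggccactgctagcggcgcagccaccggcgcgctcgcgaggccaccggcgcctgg
Chgb (GRCm38.p6 chr2:132781392-132781691, plus strand): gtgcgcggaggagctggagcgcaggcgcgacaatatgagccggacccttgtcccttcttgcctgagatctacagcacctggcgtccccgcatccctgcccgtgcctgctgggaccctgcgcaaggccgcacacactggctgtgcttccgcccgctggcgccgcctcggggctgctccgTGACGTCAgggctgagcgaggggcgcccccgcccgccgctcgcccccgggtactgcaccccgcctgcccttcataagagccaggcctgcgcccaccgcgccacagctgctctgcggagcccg
Scg2 (GRCm38.p6 chr1:79439977-79440276, minus strand): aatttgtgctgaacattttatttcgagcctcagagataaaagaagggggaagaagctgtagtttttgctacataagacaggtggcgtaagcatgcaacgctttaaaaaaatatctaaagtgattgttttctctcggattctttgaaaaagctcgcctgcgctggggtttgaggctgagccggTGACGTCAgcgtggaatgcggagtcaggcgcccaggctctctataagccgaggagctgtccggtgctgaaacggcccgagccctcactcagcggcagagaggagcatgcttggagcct
Pcsk1 (GRCm38.p6 chr13:75089607-75089906, plus strand): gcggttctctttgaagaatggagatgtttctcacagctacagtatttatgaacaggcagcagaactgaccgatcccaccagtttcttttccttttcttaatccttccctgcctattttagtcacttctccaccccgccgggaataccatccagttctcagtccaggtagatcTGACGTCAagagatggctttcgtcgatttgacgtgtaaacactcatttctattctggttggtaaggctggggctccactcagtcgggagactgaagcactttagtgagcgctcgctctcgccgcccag

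In Sst the element began 48 bases before the start, in Sstr2 58, in Scg2 68, in Chgb 72, in Pcsk1 78 and in Cartpt 112. Of these 6 genes, 5 had values on replicates 2 to 4, with means from -0.21 to 0.15, of which 3 were positive and 2 negative, and none had an unadjusted p under 0.05. The largest means of the set belonged to other genes. Ghrh and Adcyap1, precursors with an unadjusted p under 0.05, held the short form alone. Their windows follow with the short form in capitals, 1 window of 2 for each gene.
Ghrh (GRCm38.p6 chr2:157337377-157337676, minus strand): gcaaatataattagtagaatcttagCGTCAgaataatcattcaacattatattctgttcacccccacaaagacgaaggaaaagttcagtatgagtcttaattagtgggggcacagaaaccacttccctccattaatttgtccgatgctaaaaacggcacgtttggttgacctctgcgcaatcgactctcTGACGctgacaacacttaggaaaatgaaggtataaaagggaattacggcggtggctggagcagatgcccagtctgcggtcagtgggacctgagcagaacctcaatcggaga
Adcyap1 (GRCm38.p6 chr17:93198918-93199217, plus strand): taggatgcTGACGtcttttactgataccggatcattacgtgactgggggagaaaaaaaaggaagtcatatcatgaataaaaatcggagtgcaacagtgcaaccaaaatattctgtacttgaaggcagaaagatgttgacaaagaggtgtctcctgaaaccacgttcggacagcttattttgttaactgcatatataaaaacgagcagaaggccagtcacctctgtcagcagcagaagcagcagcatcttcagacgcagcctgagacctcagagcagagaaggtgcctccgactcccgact

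Ghrh, which encodes the growth hormone-releasing hormone of the hypothalamus, had the highest mean among the 44 genes. Its log ratios were 0.17, 1.09 and 1.22 on replicates 2, 3 and 4, and -0.035 on replicate 1. Replicates 3 and 4 were high, while replicates 1 and 2 were close to 0. The mean over replicates 2 to 4 was 0.83 ± 0.57 (SD, n = 3), or 1.77-fold in size, with a 95% interval from 0.24 to 1.41 and an adjusted p of 0.473 in limma. Because replicate 1 was near 0, its sign hardly moved the 4-array mean, which was 0.63 with replicate 1 turned and 0.61 as deposited. It was the single gene of the set at an unadjusted p under 0.05 in both of these and on replicates 2 to 4. These fits share replicates 2 to 4, and Ghrh was not listed without replicate 3, without replicate 4 or with array weights. With replicate 1 turned and a dye term added, its mean was 0.43. The receptor for this hormone, Ghrhr, had 2.12 on replicate 3, while replicates 2, 4 and 1 gave -0.095, 0.038 and -0.61, so its mean of 0.69 rested on a single array.

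Adcyap1 encodes PACAP, a peptide that raises cAMP in neurons and their progenitors. Its log ratios were 0.26, 0.28 and 1.07 on replicates 2, 3 and 4, and -0.63 on replicate 1. All 3 arrays with null RNA in Cy5 were positive and the swapped array negative, with replicate 4 far above the others. The mean over replicates 2 to 4 was 0.54 ± 0.46 (SD, n = 3), with a 95% interval from 0.021 to 1.06, and limma's adjusted p was 0.504. With replicate 1 turned the 4-array mean was 0.56, with an adjusted p of 0.522, and as deposited it was 0.25. Adcyap1r1, the main PACAP receptor, had the same order of arrays in part, at -0.45, 0.85 and 0.40 on replicates 2, 3 and 4 and -0.99 on replicate 1, and its mean of 0.26 ± 0.66 (SD, n = 3) was smaller than its spread.

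Npff, the precursor of neuropeptide FF, which modulates opioid actions, had tighter values. They were 0.30, 0.29 and 0.54 on replicates 2, 3 and 4, and -0.60 on replicate 1. Turning replicate 1 thus placed all arrays between 0.29 and 0.60. Their mean on replicates 2 to 4 was 0.38 ± 0.14 (SD, n = 3), with an adjusted p of 0.498 in limma, and 0.44 over 4 arrays with replicate 1 turned, with an adjusted p of 0.521.

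Npy, the peptide of a class of cortical interneurons, was positive on every array as deposited. Its log ratios were 0.21, 0.31 and 0.41 on replicates 2, 3 and 4, and 0.28 on replicate 1. The 4 values lay close together without turning replicate 1, in contrast to Npff and Adcyap1. The mean was 0.31 ± 0.10 (SD, n = 3) over replicates 2 to 4, with an adjusted p of 0.548 in limma. Over 4 arrays it was 0.30 as deposited, with an unadjusted p under 0.05, and 0.16 with replicate 1 turned. With a dye term added to the latter, it was 0.0135.

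Pdyn, the precursor of dynorphins, which act on kappa opioid receptors, was the precursor with negative values on all 4 arrays. It had -0.31, -0.25 and -0.31 on replicates 2, 3 and 4, and -0.99 on replicate 1. The 3 arrays of like dye orientation lay close together, and replicate 1 stood apart. The mean of -0.29 ± 0.032 (SD, n = 3) had an adjusted p of 0.550 in limma. Over 4 arrays it was -0.47 as deposited, with an unadjusted p under 0.05, and 0.032 with replicate 1 turned. With a dye term added to the latter, it was 0.35, again with an unadjusted p under 0.05 in limma. Pdyn was thus listed with opposite signs in these 4-array fits. The other opioid precursors differed from Pdyn and from each other. Penk, which encodes the enkephalins, had -0.26, 0.48 and 0.69 on replicates 2, 3 and 4, and 0.23 on replicate 1. Pnoc, which encodes nociceptin, ran from -0.77 on replicate 2 through 0.74 on replicate 3 to 2.13 on replicate 4, with -1.41 on replicate 1. Its SD of 1.45 was the widest among the precursors and exceeded its mean of 0.70.

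Cck and Sst are the peptides of well-known interneuron classes, and Cck is also made by many projection neurons. Cck had 0.19, 0.26 and 0.24 on replicates 2, 3 and 4, and -0.094 on replicate 1. Its mean of 0.23 ± 0.039 (SD, n = 3) was small but nearly the same on the 3 arrays, with an adjusted p of 0.624 in limma. Sst had -0.063, 0.19 and 0.24 on replicates 2, 3 and 4, and -0.12 on replicate 1. Its values spanned 0, and the mean of 0.12 ± 0.16 (SD, n = 3) was smaller than the spread. Tac1, the precursor of substance P, had -0.71, 0.36 and -0.29 on replicates 2, 3 and 4, and -0.22 on replicate 1, so that replicate 3 alone was positive.

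The remaining precursors did not keep a sign, apart from Nppc. Nppc, the C-type natriuretic peptide, had 0.11, 0.62 and 0.017 on replicates 2, 3 and 4, and -0.39 on replicate 1. Edn2, an endothelin, had 1.10 and 1.05 on replicates 3 and 4, but -0.50 on replicate 2 and -0.14 on replicate 1. Gal, the precursor of galanin, had -0.40, -0.73 and 0.22 on replicates 2, 3 and 4, and -1.06 on replicate 1, which made it the precursor with the lowest mean, -0.31 ± 0.48 (SD, n = 3). Avp, Nmu and Nppb, which encode vasopressin, neuromedin U and a natriuretic peptide, had means between 0.034 and 0.10, each below its own SD.

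For 3 precursors the value of replicate 2 was missing. They entered a fit only where 1 missing value was allowed or replicate 2 was left out. In both of these runs on replicates 2 to 4, Edn3 and the convertase gene Pcsk6 were at an unadjusted p under 0.05 in limma, on the negative side. For these genes both runs rest on replicates 3 and 4 alone. With 1 missing value allowed, 9 of 48 genes were listed, or 18.8%, against 9.39% of all probes. Cartpt, the precursor of the CART peptides, had 1.44 on replicate 3, -2.27 on replicate 4 and 0.73 on replicate 1. These are among the furthest values of the set and point opposite ways on arrays of the same orientation. Edn3, an endothelin, had -0.46, -2.30 and -1.78 on replicates 3, 4 and 1, and was negative on all 3. Tac2, which encodes neurokinin B, had 0.33, -0.58 and -0.14 on the same arrays.

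**Figure D2:**
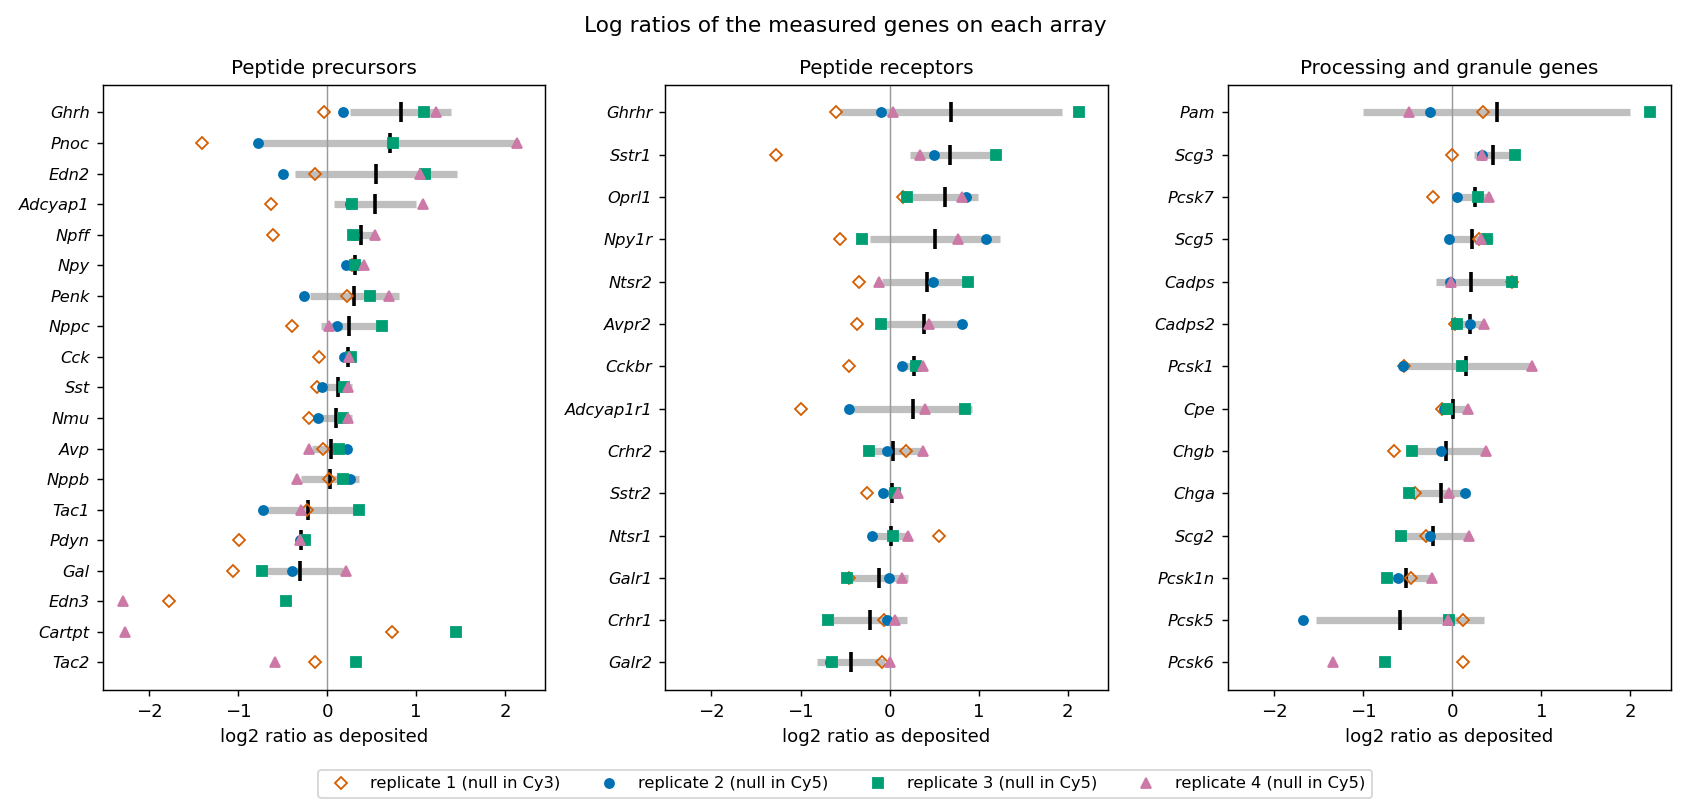
Deposited log2 ratio (horizontal axis) of each gene on each array, by role; symbols mark the 4 arrays, vertical ticks the mean of replicates 2 to 4 and grey bars its SD (n = 3), and genes without a bar lacked replicate 2. Open diamonds of replicate 1 lie left of the other symbols for Adcyap1, Npff and Sstr1 and among them for Npy, whereas Pam, Ghrhr and Pcsk5 owe their means to 1 array each.

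Among the receptors, Oprl1 and Sstr1 had an unadjusted p under 0.05 on replicates 2 to 4. Sstr1 encodes an inhibitory receptor for somatostatin. Its log ratios were 0.50, 1.20 and 0.34 on replicates 2, 3 and 4, and -1.27 on replicate 1. The swapped array had about the size of replicate 3 with the opposite sign. The mean over replicates 2 to 4 was 0.68 ± 0.45 (SD, n = 3), with a 95% interval from 0.17 to 1.19, and limma's adjusted p was 0.473. With replicate 1 turned the mean was 0.83, or as deposited 0.19, and the former had the smallest p of the set, adjusted to 0.434. Sstr2, the other measured somatostatin receptor, had -0.076, 0.056 and 0.095 on replicates 2, 3 and 4, and -0.25 on replicate 1, close to 0 on the first 3.

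Oprl1, the receptor for nociceptin, was positive on every array. It had 0.85, 0.19 and 0.81 on replicates 2, 3 and 4, and 0.15 on replicate 1, so that replicates 2 and 4 were high and the others low. Replicates 2 to 4 averaged 0.62 ± 0.37 (SD, n = 3), with an adjusted p of 0.473 in limma, and the 4-array mean was 0.50 as deposited and 0.43 with replicate 1 turned. Cckbr, the cholecystokinin receptor of the brain, had 0.13, 0.29 and 0.38 on replicates 2, 3 and 4, and -0.45 on replicate 1. Its mean of 0.27 ± 0.12 (SD, n = 3) had an adjusted p of 0.593 in limma. Cckbr reached an unadjusted p under 0.05 over 4 arrays with replicate 1 turned, where its mean was 0.31, and had 0.088 as deposited.

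Other receptors had wider spreads. Npy1r, a receptor for neuropeptide Y, had 1.08, -0.31 and 0.77 on replicates 2, 3 and 4, and -0.55 on replicate 1. Avpr2, a vasopressin receptor, shared this order with 0.81, -0.096 and 0.44, and -0.37 on replicate 1. In both, replicate 3 was the array that broke the sign. Ntsr2, a neurotensin receptor, had 0.48, 0.89 and -0.12 on replicates 2, 3 and 4, and -0.35 on replicate 1. Galr2, a galanin receptor, was the receptor with the lowest mean, with -0.67 and -0.65 on replicates 2 and 3, close to 0 on replicate 4 and -0.090 on replicate 1. The mean of -0.44 ± 0.38 (SD, n = 3) had an adjusted p of 0.526 in limma. Galr1, Crhr1, Crhr2 and Ntsr1, receptors for galanin, corticotropin-releasing hormone and neurotensin, had means between -0.22 and 0.038.

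In the processing and granule group, Pcsk1n and Scg3 pointed opposite ways. Pcsk1n encodes proSAAS, an inhibitor of the prohormone convertase PC1/3. Its log ratios were -0.60, -0.74 and -0.22 on replicates 2, 3 and 4, and -0.47 on replicate 1. It was negative on every array as deposited. The mean over replicates 2 to 4 was -0.52 ± 0.27 (SD, n = 3), with a 95% interval from -0.93 to -0.11 and an adjusted p of 0.473 in limma. The 4-array mean was -0.51 as deposited, with an adjusted p of 0.663, and -0.27 with replicate 1 turned. With a dye term added to the latter, it was -0.0265.

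Scg3, a granin that ties other granins to the granule membrane, had 0.33, 0.71 and 0.33 on replicates 2, 3 and 4, and -0.00028 on replicate 1. For replicates 2 to 4 the mean was 0.46 ± 0.22 (SD, n = 3), with an adjusted p of 0.473 in limma. Both 4-array means were 0.34, because replicate 1 was at 0. The other granins lay lower. Scg2, the precursor of secretoneurin, had -0.25, -0.58 and 0.19 on replicates 2, 3 and 4, and -0.30 on replicate 1. Chga had 0.15, -0.49 and -0.036, and -0.42 on replicate 1, and Chgb had -0.12, -0.46 and 0.38, and -0.66 on replicate 1. None of these 3 granins kept a sign over replicates 2 to 4, and their means of -0.21, -0.13 and -0.067 were smaller than their SDs.

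The enzymes that make the mature peptide showed no common sign. Pcsk1, the convertase PC1/3, had -0.55, 0.11 and 0.90 on replicates 2, 3 and 4, and -0.54 on replicate 1. Cpe, carboxypeptidase E, stayed within 0.18 of 0 on every array, and its 95% interval over replicates 2 to 4 ran from -0.35 to 0.37. Scg5, the 7B2 chaperone of the convertase PC2, had -0.036, 0.40 and 0.33 on replicates 2, 3 and 4, and 0.30 on replicate 1. Pam, the amidating enzyme, had 2.22 on replicate 3 but -0.24 and -0.48 on replicates 2 and 4, with 0.34 on replicate 1.

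Of the convertases of the constitutive pathway, Pcsk7 had 0.057, 0.29 and 0.42 on replicates 2, 3 and 4, and -0.21 on replicate 1. Pcsk5 had -1.67 on replicate 2 and between -0.042 and 0.12 elsewhere. Pcsk6, without a value on replicate 2, had -0.75, -1.34 and 0.12 on replicates 3, 4 and 1. Cadps and Cadps2, the CAPS proteins that prime dense core vesicles for release, had means of 0.21 and 0.20. Cadps2 was positive on every array, between 0.027 and 0.36, and Cadps had 0.67 on replicates 1 and 3 and values just below 0 on the others. Tacc2, matched by spelling alone, had a mean of -0.039.

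The genes that kept a sign on replicates 2 to 4 were set against replicate 1, the array with swapped dyes. Positive values on each of the 3 arrays belonged to 12 of the 44 genes, or 27.3%, against 16.3% of all probes, and negative values on each to 3 genes, or 6.82%, against 17.3%. Of the 12, 9 were negative on replicate 1, namely Ghrh, Npff, Adcyap1, Cck, Nppc, Sstr1, Cckbr, Scg3 and Pcsk7. This is 20.5% of the 44 genes against 8.53% of all probes. The other 3, Npy, Oprl1 and Cadps2, were positive there as well, or 6.82% against 7.77%. Pdyn and Pcsk1n were negative on all 4 arrays, or 4.55% against 7.74%, and Pcsk5 was negative on replicates 2 to 4 and positive on replicate 1, or 2.27% against 9.58%. Scg3 and Ghrh, at -0.00028 and -0.035, were close to 0 on replicate 1, so that their opposite sign there rests on little. Of all 5687 probes, 485 were positive on replicates 2 to 4 and negative on replicate 1, and 442 were positive on all 4 arrays. With negative values on replicates 2 to 4, 545 were positive on replicate 1 and 440 were negative there too.

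**Figure D3:**
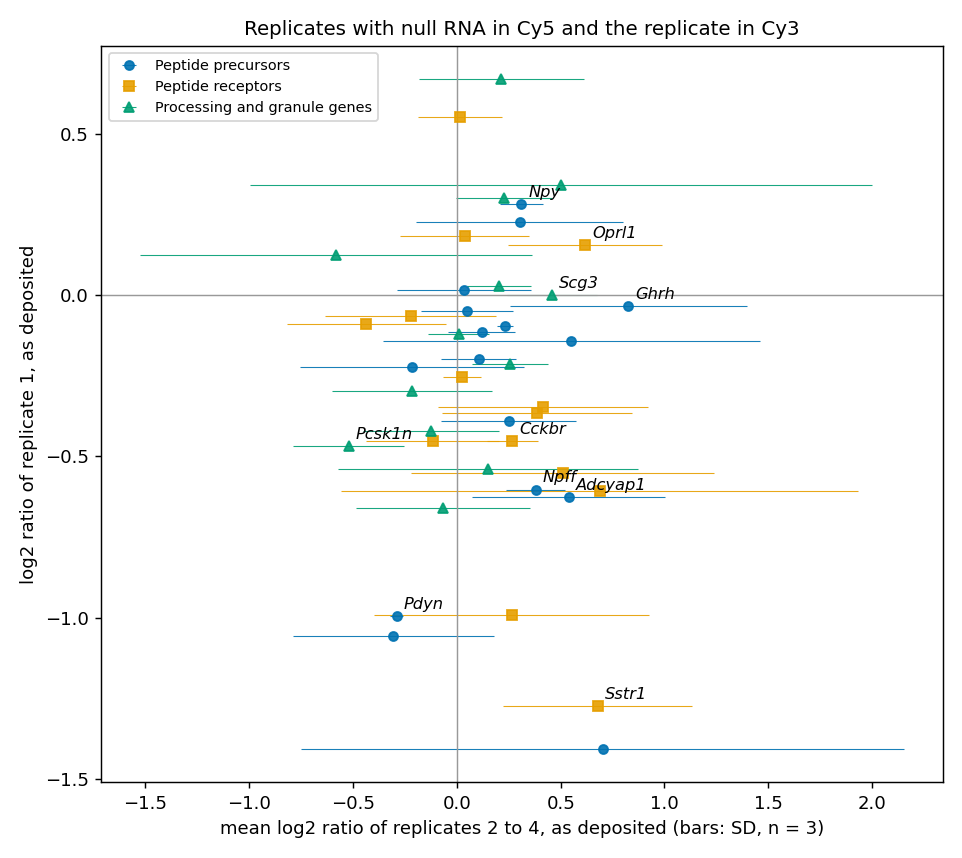
Mean deposited log2 ratio over replicates 2 to 4 (horizontal axis, bars SD, n = 3) against the deposited log2 ratio of replicate 1, whose dyes were swapped (vertical axis), for the genes of the 3 roles measured on all arrays; genes with an unadjusted p under 0.05 in any of the 3 fits are named. Sstr1, Adcyap1, Npff and Cckbr lie at lower right, with opposite signs, while Npy and Oprl1 lie at upper right and Pcsk1n and Pdyn at lower left.

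Over all 4 arrays the set again had no gene past the adjusted threshold in limma. With replicate 1 turned, 5 of 44 genes were at an unadjusted p under 0.05, or 11.4%, against 480 of 5687 probes, or 8.44%, and all 5 were positive, where the share of all probes was 5.29% on the positive and 3.15% on the negative side. They were Sstr1, Npff, Adcyap1, Ghrh and Cckbr. With replicate 1 as deposited, 5 of 44 were listed, against 405 probes or 7.12%, with Ghrh, Oprl1 and Npy positive and Pcsk1n and Pdyn negative. The 3 positive genes are 6.82% of the set, against 3.48% of all probes, and the 2 negative ones 4.55%, against 3.64%. The median of the set was 0.14 with replicate 1 turned and 0.088 as deposited, beside -0.016 and -0.015 over all probes. With replicate 1 turned, 15 of 16 precursors, 10 of 14 receptors and 9 of 13 processing and granule genes had positive means, where 46.7% of all probes did. As deposited the numbers were 13 of 16, 9 of 14 and 6 of 13, where 47.0% of all probes were positive, so that processing and granule genes, at 46.2%, were at the share of all probes. As deposited, 2 probes or 0.0352% of the whole table passed the adjusted threshold, neither of them in the set, and with replicate 1 turned the number was 0.

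Related genes outside the list of names were read on replicates 2 to 4. Among other peptides and peptide receptors, 31 of 47 were on the array and 13 had values on all 3 arrays. Of these 13, 4 were at an unadjusted p under 0.05 in limma, all positive, against 9.67% of all probes, and 0 passed the adjusted threshold. They were all receptors. Ednrb, the endothelin receptor of neural crest and glia, had 1.00, 0.83 and 0.57 on replicates 2, 3 and 4, and -0.26 on replicate 1. Glp1r, the receptor for glucagon-like peptide, had 0.62, 0.23 and 0.75, and -0.24 on replicate 1. Prokr1, a prokineticin receptor, had 0.36, 0.78 and 0.23, and -1.20 on replicate 1, and Bdkrb1, a bradykinin receptor, had 0.68, 0.96 and 0.14, and 0.39 on replicate 1. The first 3 thus had the opposite sign on the swapped array and Bdkrb1 the same one.

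Peptidases and related enzymes, 12 of 20 measured, had a median of -0.12, and 1 of their 13 probes was at an unadjusted p under 0.05, on the positive side, where 5.61% of all probes lay. This was Ctsl, the lysosomal protease cathepsin L, at 0.39 ± 0.092 (SD, n = 3). Genes of the vesicle membrane and of release, 12 of 27 measured, had a median of 0.024, and 2 were at an unadjusted p under 0.05, both negative, where 4.06% of all probes lay. Stx1a, the syntaxin of the plasma membrane, had -0.95 and -1.02 on replicates 2 and 3 and close to 0 on replicate 4, and Syt7, a calcium sensor of vesicle fusion, had -1.06, -0.60 and -0.14 on replicates 2, 3 and 4. On replicate 1 they had -0.32 and -0.41.

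Markers of the cells that could carry peptide RNA were read beside these results. Over all 5720 probes, 47.4% had a positive mean, and the counts of the interneuron and striatal lists lay nearest to that share. Hypothalamic and diencephalic genes had 10 of 13 negative means, with list means of -0.24, -0.18 and -0.16 on replicates 2, 3 and 4. Cortical interneuron genes, which include Npy and Sst, had 9 of 15 negative, with list means of -0.13, -0.015 and -0.057. Gad2, a GABA-synthesising enzyme, had 0.72 ± 0.22 (SD, n = 3) and Gad1, the other one, -0.24 ± 0.13. Striatal genes had 5 of 9 positive and a median of 0.037. Their list means were negative on all arrays, at -0.076, -0.12 and -0.10 on replicates 2, 3 and 4, and -0.34 on replicate 1. The list mean of replicate 3 included Drd1 at -2.62, by far the furthest value of the list on that array. Projection neuron genes had 11 of 14 negative. Microglial genes had 7 of 8 positive, with list means of 0.29, 0.57 and 0.31 on replicates 2, 3 and 4, and endothelial genes 8 of 11 negative, with -0.21, -0.59 and -0.21. At an unadjusted p under 0.05, where 5.61% of all probes were positive and 4.06% negative, the negative side held 5 of 11 endothelial, 5 of 14 projection neuron, 2 of 13 hypothalamic and 2 of 9 striatal probes and 1 of 17 interneuron probes. The positive side held 3 of 8 microglial probes and 1 each of the projection neuron, interneuron and striatal lists. The part of these cells in the peptide values was not tested.

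Over all probes, between 5777 and 5873 had a value on an array, the array medians lay between -0.031 and 0.0044, and the SD over probes was 0.40 to 0.63, widest on replicate 3. The share of values beyond 1 in size was 12.5% of the 48 genes on replicate 3, against 7.82% of all probes, and 14.6% on replicate 4, against 1.7%. On replicates 1 and 2 it was 8.33%, against 3.97%, and 4.55%, against 2.73%. On replicate 4 these were 7 genes, namely Ghrh, Pnoc, Edn2, Adcyap1, Edn3, Cartpt and Pcsk6, of which 3 were negative, and these 3 lacked a value on replicate 2.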

How the data were processed

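Per the labels, each sample is a two-colour array. The deposited values are log ratios, 1 column per array, taken as log2 from their range; for log base, numerator, background correction and normalization no source used here gives a statement, and 0 value columns were left unused. The number of arrays limits the precision, and signal over background was not analysed here. Symbols came from the platform annotation. Mean log ratios were tested against 0, two-sided, in R 4.3.3 with limma 3.58.1 (lmFit, eBayes) across all probes complete over the arrays fitted, and p-values were adjusted by Benjamini-Hochberg over all of them. The fit was run on simulated independent log ratios drawn from its own variance prior. They held no dye effect, shared pool or arrays of unequal spread, so the run does not speak to those limits. Members, lists and tests were chosen with earlier results of these data known. Named were the 7 genes per role with the smallest p on replicates 2 to 4, those at an unadjusted p under 0.05 in any fit, and a list of well-known peptide genes; the other genes were added for completeness after their values were seen. P-values set each mean against the spread between the arrays, moderated over all probes, and include no spread between controls. The targeted gene is not reported here. Alternatives were centring, scaling, a missing value, averaging by gene, a robust prior, array weights, a dye term, the sign of replicate 1 and leaving out each replicate.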

Additional observations from a re-analysis of the deposited data

Results flagged for a closer look

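With 4 values per gene, a single array stood far from the other 3 in 5 of 60 sets of values checked, each gene being checked with replicate 1 turned and as deposited. Chance gives about 1 in 20. Pcsk5 had -1.67 on replicate 2, with the gap to the next array at 0.943 of the whole range with replicate 1 turned and 0.907 as deposited. Pam had 2.22 on replicate 3, at 0.912 with replicate 1 turned. Pdyn stood apart on replicate 1, at -0.99 as deposited, which is 0.99 when turned, with gaps of 0.923 and 0.956.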

How the results depend on the processing

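Of the 30 named genes with a value on replicates 2 to 4, 20 kept their sign in every alternative run, and none passed the adjusted threshold in any. A robust prior, a missing value allowed and averaging by gene left these means unchanged, so they could not turn a sign. Many of these genes were named for a small p on the same arrays, and the share of all probes that kept their sign was not counted. Each log ratio compared a null sample with the control pool on the same array, and these ratios were tested against 0. Null samples could not be paired with separate controls, because there is 1 control pool. The number of probes past the adjusted threshold in limma, 0 on replicates 2 to 4, was 1 with a robust variance prior, 3 with array weights, 2 over 4 arrays with replicate 1 as deposited and 1 with replicate 1 turned and a dye term, and 0 without each replicate. Array weights raised the number of genes of the set at an unadjusted p under 0.05 to 12, or 27.3%, beside 18.7% of all probes, and lowered the median to 0.037 for the set, 0.081 for precursors and 0.013 for processing and granule genes. The last median ranged from -0.076 to 0.13 with 1 replicate left out, lowest without replicate 4, and was -0.021 over 4 arrays as deposited. Over 4 arrays with replicate 1 turned, the 5 genes became 8 on a common scale, or 18.2% against 9.18% of all probes, and 9 with array weights, or 20.5% against 11.6%. They ranged from 3 to 9 with 1 replicate left out, with 3 or 6.82% against 5.89% without replicate 4, and 9 or 18.8% against 4.69% without replicate 2. The causes were not tested.

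Signs turned as follows. With replicate 1 turned, the means were -0.0058 for Cadps, 0.011 for Chga, 0.11 for Chgb and 0.032 for Pdyn. With a dye term added they were -0.23 for Cadps, 0.15 for Chga, 0.30 for Chgb, 0.35 for Pdyn, 0.041 for Scg2, -0.036 for Scg5 and 0.0032 for Tac1. The dye-term fit listed 5 of 44 genes at an unadjusted p under 0.05 in limma, or 11.4%, against 6.73% of all probes. All 5 were positive and included Pdyn, which was listed on the negative side with replicate 1 as deposited. In that fit Npy, at 0.0135, and Pcsk1n, at -0.0265, kept their signs but came close to 0. With replicate 1 as deposited, Cpe had -0.024 and Pcsk1 -0.021. With array weights, Chga had 0.029, Cpe -0.029 and Pcsk1 -0.16. On a common scale Chgb had 0.011. With 1 replicate left out, the ranges were -0.015 to 0.33 for Cadps, -0.26 to 0.056 for Chga, -0.29 to 0.13 for Chgb, -0.076 to 0.058 for Cpe, -0.36 to 0.99 for Pam, -0.22 to 0.50 for Pcsk1 and -0.50 to 0.033 for Tac1.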
